A study of Mus musculus with 12 samples.

Results

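The Hes and Hey genes examined here were Hes1, Hes3, Hes5, Hes6, Hes7, Hey1, Hey2 and Heyl. They were followed in mouse embryonic stem (ES) cells before and after the proneural gene Neurog1 was switched on. A probe set was assigned to a gene only where the array annotation gave that gene's symbol alone, and of several probe sets the one with the highest mean log2(signal + 16) over the 12 arrays stood for the gene. All 8 genes had a probe set among the 18193 genes of the array, and 6 of the 8 passed the filter on low signals.

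The cells were ES cells of 129P2/OlaHsd origin (E14, Ainv15) that carried a tet-controlled Neurog1 transgene, and per the labels' protocols all groups were grown in serum, leukaemia inhibitory factor, puromycin and G418. There were 4 groups of 3 arrays, which the labels call biological replicates. These were uninduced cells at 0 h without doxycycline, and cells given 1 ug/ml doxycycline for 24, 48 and 72 h. A single engineered ES cell line was used. The labels place uninduced cells at 0 h, so the transgene, doxycycline and culture time cannot be told apart by this design.

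Hes and Hey genes encode basic helix-loop-helix transcription factors, most of which repress other genes and are classical targets of the Notch receptor. When a ligand such as Dll1 on a neighbouring cell binds Notch, the receptor is cleaved and its intracellular part joins the DNA-binding protein RBPJ to switch on these targets. In the developing nervous system Hes1 and Hes5 hold back proneural genes and keep cells as progenitors. Hes6 is the exception of the family: in mouse it is induced by proneural factors, opposes Hes1 and promotes neuronal differentiation.

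The switched-on gene followed its labels. The Neurog1 signal was 11.4, 18.7 and 4.53 in uninduced cells, 756, 931 and 974 at 24 h, 1089, 1152 and 889 at 48 h, and 783, 679 and 465 at 72 h. All 9 induced arrays lay above all 3 uninduced arrays, with log2 differences of 5.06 ± 0.26, 5.29 ± 0.26 and 4.58 ± 0.26 (SE, n = 3 against 3) at 24, 48 and 72 h. A second, dimmer Neurog1 probe set gave smaller differences of 2.79 ± 0.50, 2.35 ± 0.50 and 2.36 ± 0.50 at these times, in a separate fit of all probe sets. The array of 24 h replicate 1 stood apart from its group, with correlations of 0.787 and 0.812 across the tested genes with the other 24 h arrays, against at least 0.961 for every other pair within a group. Results at 24 h are therefore given with and without it for Hes5, Hes6 and some genes of the lists below. Most other 24 h differences are given with it only, also where it held the highest 24 h signal, as for Dll3 and Mfng. Array medians ran from 19.5 to 32.8 signal units, and the number of arrays limits the precision. These are bulk samples, so fewer cells of a type and less RNA per cell cannot be told apart.

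The 8 genes followed different courses. Hes6 signals were highest at 24 h and lower at each later time, while those of Hes5, Hey1, Hey2 and Heyl were highest at 48 h. Hes1 showed smaller differences, none of which passed the test. Hes7 was dim, with its highest signals at 24 h, and Hes3 was dim throughout.

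**Figure D1:**
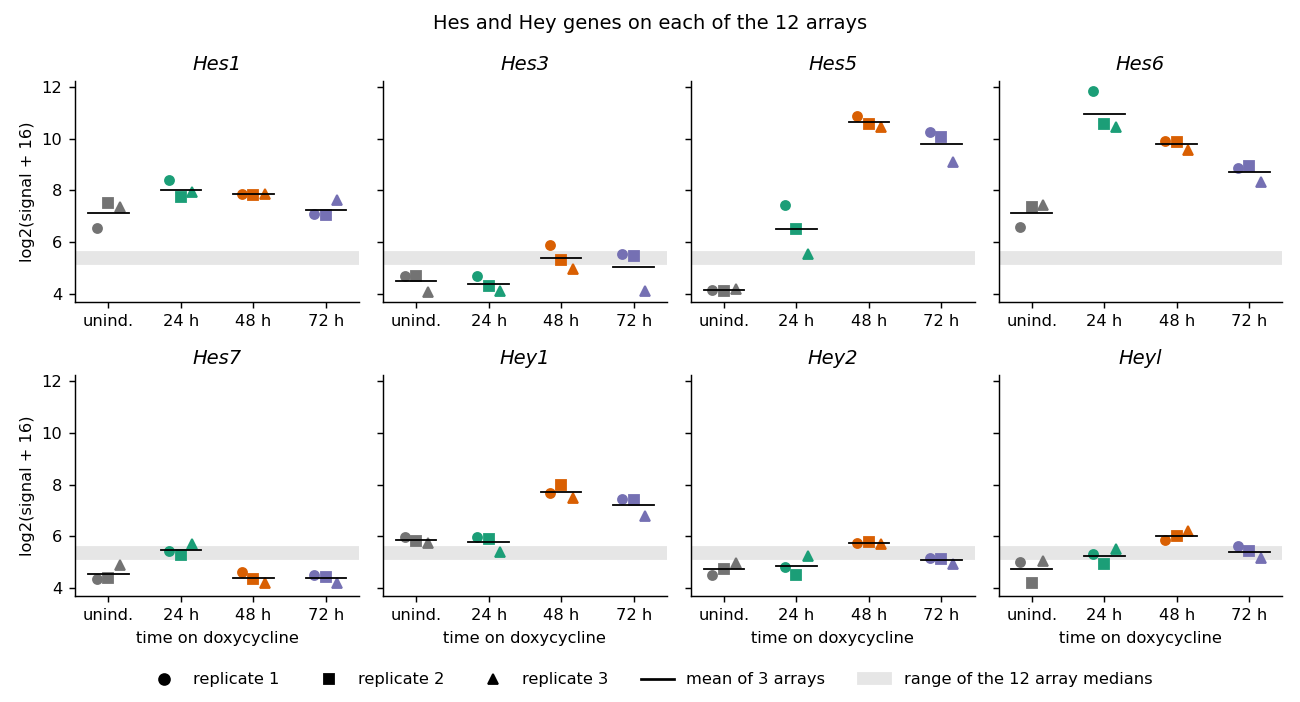
Level of each of the 8 genes on all 12 arrays as log2(signal + 16), with 1 panel per gene, for uninduced cells and 24, 48 and 72 h of doxycycline; points are arrays, black bars the means of 3 arrays and the grey band the range of the array medians. The Hes6 points are highest at 24 h, the Hes5, Hey1, Hey2 and Heyl points at 48 h.

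In the fit across all genes (limma, Benjamini-Hochberg adjustment over 11806 genes, called at an adjusted p under 0.05), 2 of the 6 tested members were higher at 24 h than in uninduced cells and 0 were lower. These were Hes5 and Hes6. Of all genes tested, 8.12% were called higher and 3.18% lower in that comparison. At 48 h, 5 of the 6 were higher than in uninduced cells, all but Hes1, and 0 were lower, where 22.6% of all genes were called higher and 14% lower. At 72 h, Hes5, Hes6 and Hey1 were higher, 3 of the 6, with 0 lower, against 25.3% of all genes higher and 18.6% lower. The 3 comparisons share the same uninduced arrays. Over the 6, the median log2 difference came to 0.69 for 24 h, 1.56 for 48 h and 1.01 for 72 h, beside 0.10, 0.12 and 0.09 over all genes tested.

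Hes5, Hey2 and Heyl passed the filter only through induced groups, since none of their uninduced signals exceeded the array median. A count or a median over the tested members is therefore a description and not support for a family response.

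Between induced times, Hes5, Hey1 and Hey2 were called higher and Hes6 lower at 48 h than at 24 h, where 10.3% of all genes were called higher and 7.55% lower. Hey2 and Heyl met the filter through the 48 h arrays alone, so their differences between 48 h and any other time are descriptions of genes admitted for being high at 48 h. For 72 h against 48 h limma called 0 of the 6 (0.644% of all genes higher, 0.152% lower). In that comparison 3 of the 6 had an unadjusted p under 0.05, namely Hes6, Hey2 and Heyl, and all 6 differences were below 0. Of all genes tested, 8.6% had an unadjusted p under 0.05 and 54.3% a difference below 0. For 72 h against 24 h, Hes5 and Hey1 were higher and Hes6 lower, with 16.2% of all genes higher and 15.1% lower.

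**Figure D2:**
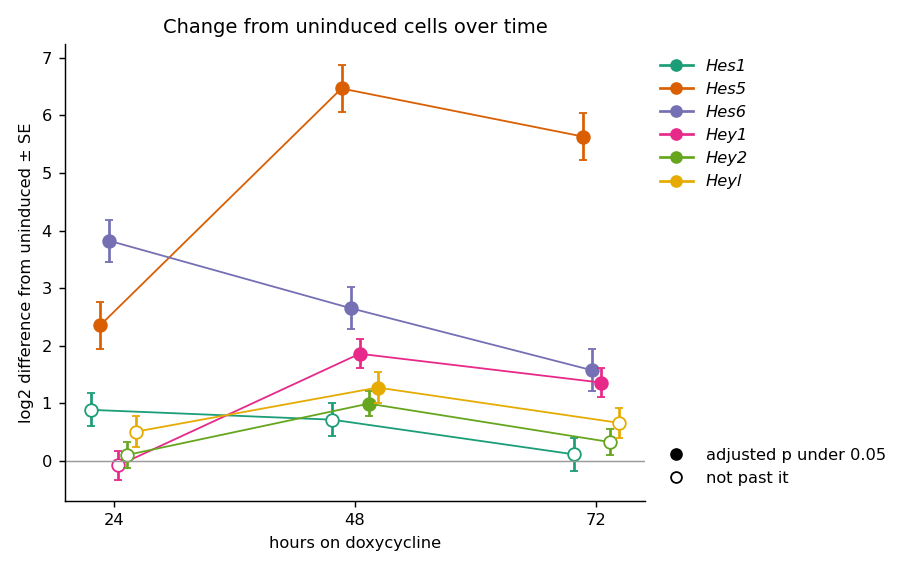
Log2 difference from uninduced cells (vertical axis, log2(signal + 16) scale) of the 6 tested members at 24, 48 and 72 h, with bars of 1 SE from limma (n = 3 against 3) and filled points for an adjusted p under 0.05. Hes5 reached 6.47 at 48 h, Hes6 was largest at 24 h with 3.82, and Hes1 stayed below 1 at each time.

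Hes5, a Notch-driven repressor that marks neural progenitors, was near 0 in uninduced cells and bright at 48 and 72 h on the probe set used. Its signal was 2, 1.36 and 2.25 in uninduced cells, 159, 75.2 and 31.5 at 24 h, 1861, 1478 and 1398 at 48 h, and 1191, 1040 and 532 at 72 h. No 2 groups overlapped: the 48 h arrays were the brightest, the 72 h arrays came next, then the 24 h arrays, and the uninduced arrays were at the floor. The highest 24 h value was on the array that stood apart and the lowest 72 h value was on replicate 3.

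Hes5 averaged 1579 ± 248 at 48 h and 1.87 ± 0.459 in uninduced cells (SD, n = 3 each), a log2 difference of 6.47 ± 0.41 (SE, adjusted p = 5.24e-07 with limma). At 24 h the difference was 2.35 ± 0.41 (adjusted p = 0.00324) and at 72 h 5.63 ± 0.41 (adjusted p = 7.06e-07). Without 24 h replicate 1 the 24 h difference was 1.88 ± 0.32 (adjusted p = 0.00114). With the uninduced signal at the floor, the size of the difference depends on the pseudocount: at 48 h it ran from 4.63 to 9.11 on the log2 scale over all alternatives, and it was called in each. Between times, Hes5 was higher at 48 h than at 24 h by 4.12 ± 0.41 (adjusted p = 5.75e-05). The 72 h level was 0.84 ± 0.41 below that of 48 h, a difference that did not pass (adjusted p = 0.658).

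The second Hes5 probe set had higher signals in uninduced cells and gave smaller differences. Its signal was 17.7, 5.44 and 32.9 in uninduced cells, 156, 30.8 and 20.6 at 24 h, 479, 297 and 308 at 48 h, and 241, 248 and 99.6 at 72 h. Here the 24 h and uninduced arrays overlapped, and the 24 h difference of 1.02 ± 0.53 was not called (adjusted p = 0.358 in the limma fit of all probe sets). At 48 h the difference was 3.49 ± 0.53 (adjusted p = 0.000421) and at 72 h 2.60 ± 0.53 (adjusted p = 0.00256). Both probe sets therefore passed at 48 and 72 h, while the early difference at 24 h was called on one of them.

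**Figure D3:**
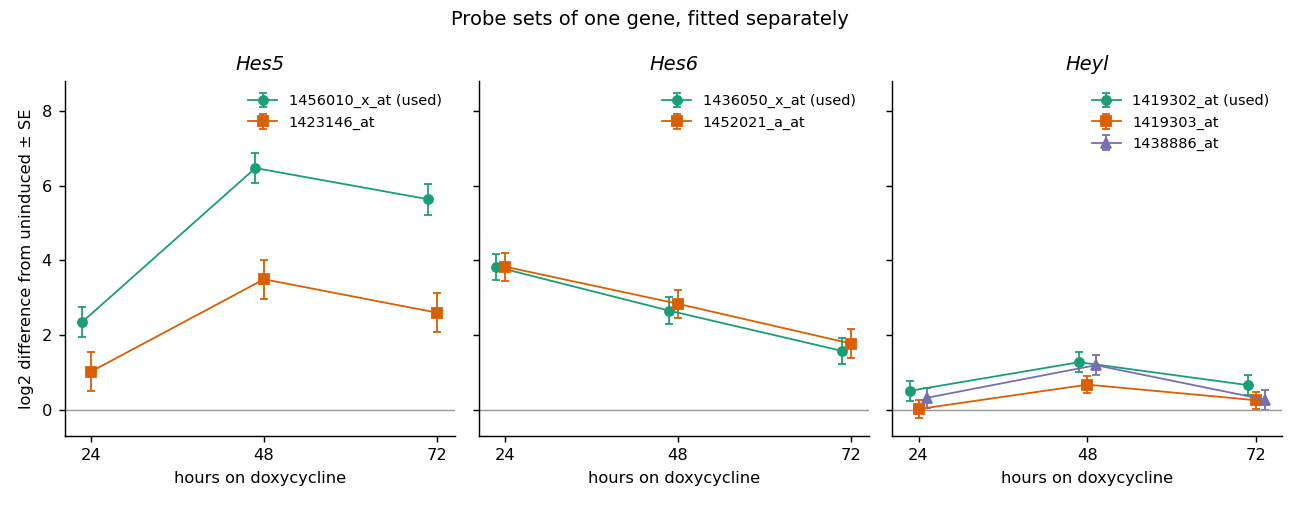
Log2 difference from uninduced cells at 24, 48 and 72 h for every probe set of Hes5, Hes6 and Heyl, 1 panel per gene, with bars of 1 SE (n = 3 against 3). The Hes6 probe sets lie within each other's error bars, whereas the Hes5 probe sets reached 6.47 and 3.49 at 48 h.

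Hes6, the family member linked to neuronal differentiation, had its highest signals at 24 h. Its signal was 79.3, 150 and 158 in uninduced cells, 3630, 1502 and 1394 at 24 h, 956, 920 and 734 at 48 h, and 445, 471 and 306 at 72 h. The groups formed separate steps without overlap, from 24 h down through 48 and 72 h to uninduced cells. The value of 3630, far above the other 24 h arrays, was on the array that stood apart.

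The difference between 24 h and uninduced cells was 3.82 ± 0.36 (adjusted p = 5.54e-05), a 14.1-fold change on the signal + 16 scale, and 3.38 ± 0.25 without 24 h replicate 1 (adjusted p = 2.38e-06). At 48 h it was 2.65 ± 0.36 (adjusted p = 0.000131) and at 72 h 1.57 ± 0.36 (adjusted p = 0.00373). Hes6 was thus above uninduced cells at all 3 times. It fell by 1.17 ± 0.36 at 48 h relative to 24 h (adjusted p = 0.0418) and by 2.25 ± 0.36 at 72 h relative to 24 h (adjusted p = 0.0006).

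The fall at 48 h relative to 24 h was the least stable of the Hes6 results. It lost its call in 12 of 23 alternatives, where the adjusted p ranged from 0.0224 to 0.13 over all 23. Among them were the fits without any 1 of the 48 h arrays, 72 h replicate 1 or 2, or uninduced replicate 2 or 3. Without 24 h replicate 1 it was -0.73 and still called (adjusted p = 0.0491). The step between 72 and 48 h, -1.08 ± 0.36, did not pass with all arrays (adjusted p = 0.267) but passed without 24 h replicate 1 (adjusted p = 0.019) in a range of 0.000362 to 0.606 over its alternatives. The second Hes6 probe set gave 3.83 ± 0.38, 2.83 ± 0.38 and 1.77 ± 0.38 at 24, 48 and 72 h against uninduced cells, all called. Its step between 48 and 24 h was -0.99 ± 0.38 (adjusted p = 0.138).

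RefSeq promoter windows, from 250 bases before to 50 after a gene's start, were held for 4 of the 8 genes: Hes5, Hes6, Hes7 and Hey2. They are shown so that the letters around the start can be read beside the courses of Hes5 and Hey2, highest at 48 h, and of Hes6 and Hes7, highest at 24 h. The motif of RBPJ, the Notch effector, was searched as GTGGGAA, and the E-box, to which Neurog1 and other proneural factors bind, as CANNTG, both on both strands. Capitals mark RBPJ matches in the Hes5, Hes7 and Hey2 windows and E-boxes in the Hes6 windows. The E-boxes of the Hes5, Hes7 and Hey2 windows are not marked. All are from GRCm38.p6, written along the gene's strand: Hes5 at chr4:154960673-154960972 (plus), Hes6 at chr1:91413173-91413472 and chr1:91413989-91414288 (minus, start 1 and start 2), Hes7 at chr11:69120203-69120502 (plus) and Hey2 at chr10:30842734-30843033 (minus).
Hes5: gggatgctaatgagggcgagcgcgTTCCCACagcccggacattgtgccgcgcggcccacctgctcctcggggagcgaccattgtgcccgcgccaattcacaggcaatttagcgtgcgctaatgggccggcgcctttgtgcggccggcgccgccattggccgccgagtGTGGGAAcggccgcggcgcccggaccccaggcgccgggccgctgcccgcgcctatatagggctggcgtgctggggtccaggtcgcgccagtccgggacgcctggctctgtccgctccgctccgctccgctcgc
Hey2: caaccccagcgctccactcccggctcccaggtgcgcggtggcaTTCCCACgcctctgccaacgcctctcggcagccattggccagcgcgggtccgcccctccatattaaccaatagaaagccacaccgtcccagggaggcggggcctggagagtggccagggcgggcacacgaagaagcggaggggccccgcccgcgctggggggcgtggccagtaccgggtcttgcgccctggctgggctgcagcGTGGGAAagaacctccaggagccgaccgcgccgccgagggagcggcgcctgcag
Hes7: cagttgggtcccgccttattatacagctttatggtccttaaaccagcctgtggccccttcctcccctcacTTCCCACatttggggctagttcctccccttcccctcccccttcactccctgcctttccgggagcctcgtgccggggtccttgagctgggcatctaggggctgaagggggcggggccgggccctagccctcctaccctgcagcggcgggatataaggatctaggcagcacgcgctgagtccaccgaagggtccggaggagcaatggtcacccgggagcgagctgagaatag
Hes6 start 1: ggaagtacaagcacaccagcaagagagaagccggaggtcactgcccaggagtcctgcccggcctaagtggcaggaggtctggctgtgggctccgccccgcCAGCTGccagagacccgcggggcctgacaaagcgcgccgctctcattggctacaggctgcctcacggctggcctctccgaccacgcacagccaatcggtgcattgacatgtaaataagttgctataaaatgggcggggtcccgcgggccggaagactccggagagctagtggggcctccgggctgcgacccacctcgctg
Hes6 start 2: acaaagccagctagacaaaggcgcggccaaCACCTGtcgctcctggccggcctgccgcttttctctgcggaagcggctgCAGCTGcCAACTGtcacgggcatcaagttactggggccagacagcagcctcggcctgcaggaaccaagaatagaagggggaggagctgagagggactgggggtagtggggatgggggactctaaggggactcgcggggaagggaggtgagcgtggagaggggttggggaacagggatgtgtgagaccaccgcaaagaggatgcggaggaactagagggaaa

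The Hes5 window held 2 RBPJ matches, 226 and 83 bases before the start, and the Hey2 window also held 2, at 207 and 4 bases before it. In both windows the first match lies on the minus strand and the second on the plus strand. At least 1 match was present in 6.38% of 32851 promoter windows of this length, and 2 or more in 0.256%. The Hes7 window held 1 match, 180 bases before the start, and neither Hes6 window held any.

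E-boxes were common, with at least 1 in 72.3% of all windows and 2 or more in 39.6%. The Hes6 windows held 1 (150 bases before the start) and 3 (at 220, 171 and 164 bases), the Hes5 and Hey2 windows 1 each (at 194 and 223 bases) and the Hes7 window 2 (at 250 and 174 bases). Motifs that HES and HEY proteins themselves bind were searched too, as class C sites (CACGNG, in 27.5% of windows) and N-boxes (CACNAG, in 42.5%). The letters CACGAG match both of these, and CACGTG matches both the E-box and the class C site. Hes7 held 2 class C sites, at 116 and 14 bases before the start, the first of which overlaps its single N-box, and 1 Hes6 window held 1 class C site at 157 bases. The other Hes6 window held 2 N-boxes, and Hes5 and Hey2 held neither motif. A match describes these letters only and is not evidence of a bound site, and the lack of one says nothing about a factor.

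**Figure D4:**
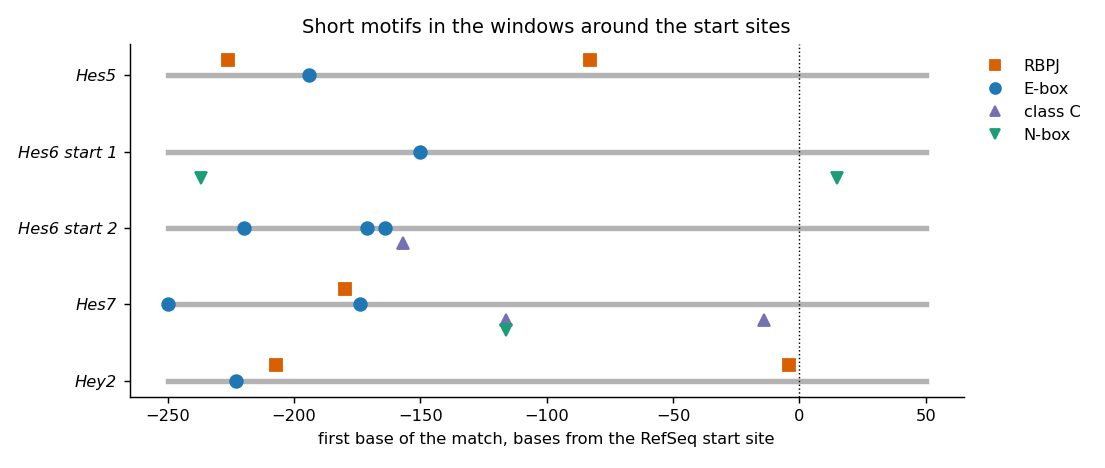
Positions of RBPJ, E-box, class C and N-box matches in the 5 promoter windows, in bases from the gene's start (horizontal axis), with 1 row per window. Hes5 and Hey2 each hold 2 RBPJ matches, Hes7 holds 1, and the Hes6 windows hold none. E-boxes are present in all 5 windows.

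Hes1, the other main Notch-driven repressor of neural progenitors, was already present in uninduced cells. Its signal was 77.7, 166 and 149 in uninduced cells, 321, 197 and 231 at 24 h, 218, 214 and 215 at 48 h, and 120, 116 and 181 at 72 h. All 24 and 48 h arrays lay above all uninduced arrays, while the 72 h arrays overlapped with them. The spread within uninduced cells was wide, with replicate 1 lower than the others, whereas the 48 h arrays were nearly equal.

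Even so, no Hes1 difference passed. Against uninduced cells it was 0.88 ± 0.29 for 24 h (adjusted p = 0.0689), 0.71 ± 0.29 for 48 h (adjusted p = 0.0716) and 0.11 ± 0.29 for 72 h (adjusted p = 0.784). Leaving out 24 h replicate 1 brought the 48 h difference past the threshold (adjusted p = 0.0212, in a range of 0.0101 to 0.293 over its alternatives). For 72 h against 24 h the difference was -0.77 ± 0.29 (adjusted p = 0.0582), which passed in 7 of 23 alternatives (adjusted p from 0.0138 to 0.18), those without 24 h replicate 2, 72 h replicate 3 or uninduced replicate 1 among them. The sign of the 72 h difference from uninduced cells turned in 5 of 23 alternatives, quantile normalization and median centring among them.

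Hes3, a repressor of early neural progenitors, and Hes7, an oscillating repressor of the segmentation clock in presomitic mesoderm, stayed under the filter on low signals. The Hes3 signal was 9.9, 10.3 and 1.18 in uninduced cells, 10.3, 3.95 and 1.3 at 24 h, 43.7, 23.4 and 15.5 at 48 h, and 30.7, 28.9 and 1.38 at 72 h. The 48 h arrays were above all uninduced arrays but differed widely among themselves, and in a limma fit without the filter the difference of 0.89 ± 0.37 was not called (adjusted p = 0.105). For Hes7 the signal was 4.64, 5.08 and 13.6 in uninduced cells, 27.5, 23.1 and 36.9 at 24 h, 8.77, 4.32 and 2.44 at 48 h, and 6.79, 5.89 and 2.25 at 72 h.

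The 24 h arrays of Hes7 lay above all 9 others. Without the filter, Hes7 was higher at 24 h than in uninduced cells by 0.94 ± 0.21 (adjusted p = 0.0169) and lower at 48 h than at 24 h by -1.09 ± 0.21 (adjusted p = 0.00454), also with limma. Of the 3 signals at 24 h, 2 exceeded their array's median. The other groups lay below the array medians, so the size of the change is poorly fixed.

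Hey1, a repressor downstream of Notch in neural precursors and the cardiovascular system, was called from 48 h on and not at 24 h. Its signal was 47.6, 40.3 and 37.7 in uninduced cells, 47.5, 44.2 and 26.2 at 24 h, 189, 234 and 163 at 48 h, and 158, 154 and 93.3 at 72 h. The 24 h and uninduced arrays overlapped, and all 48 and 72 h arrays lay above both. The difference from uninduced cells was -0.08 ± 0.25 at 24 h (adjusted p = 0.86), 1.86 ± 0.25 at 48 h (adjusted p = 0.000126, 3.63-fold) and 1.36 ± 0.25 at 72 h (adjusted p = 0.000893). At 48 h Hey1 was higher than at 24 h by 1.94 ± 0.25 (adjusted p = 0.000298).

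Hey2, best known for its roles in heart and arteries, was dim and was above its array median only at 48 h. Its signal was 7, 11.1 and 15.3 in uninduced cells, 11.9, 6.8 and 21.6 at 24 h, 38, 38.5 and 36 at 48 h, and 19.9, 19.1 and 14.3 at 72 h. The 48 h arrays were nearly equal and lay above all others, while the other 3 groups overlapped. The difference from uninduced cells was 0.99 ± 0.22 at 48 h (adjusted p = 0.00395), against 0.10 ± 0.22 at 24 h (adjusted p = 0.805) and 0.32 ± 0.22 at 72 h (adjusted p = 0.262). Hey2 was higher at 48 h than at 24 h by 0.89 ± 0.22 (adjusted p = 0.0149). That last call was lost without 24 h replicate 2 (adjusted p = 0.0549), without 48 h replicate 1 (0.0522) or without 48 h replicate 2 (0.0519), in a range of 0.0063 to 0.0637 over 22 alternatives.

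Heyl, a further member of the Hey family, was likewise highest at 48 h. Its signal was 16.3, 2.45 and 16.9 in uninduced cells, 23.6, 15 and 29.6 at 24 h, 41.9, 48.1 and 58.2 at 48 h, and 33.7, 26.9 and 20.1 at 72 h. The 48 h arrays were above all others, and the 72 h arrays were above the uninduced arrays but overlapped with 24 h. The difference from uninduced cells was 1.27 ± 0.26 at 48 h (adjusted p = 0.00247), while those of 0.51 ± 0.26 at 24 h (adjusted p = 0.245) and 0.66 ± 0.26 at 72 h (adjusted p = 0.0602) did not pass. Without 24 h replicate 1 (adjusted p = 0.0489) or without uninduced replicate 3 (0.0487) the 72 h difference was called, in a range of 0.00484 to 0.247. For 48 h against 24 h the difference was 0.77 ± 0.26 (adjusted p = 0.0627, in a range of 0.0167 to 0.206), which passed without 24 h replicate 3 or without uninduced replicate 2. Of the other Heyl probe sets, one gave 1.19 ± 0.27 at 48 h (adjusted p = 0.00654) and the other 0.67 ± 0.23 (adjusted p = 0.0616).

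The likeness of the courses was described by Pearson's r of log2(signal + 16) over the 12 arrays, which share their groups and scaling, so these values carry no test. Hes5 and Hey1 were alike at r = 0.921, Hey2 and Heyl at 0.836 and Hes1 and Hes6 at 0.816. Hes6 and Hey1 gave 0.119, and Hes1 and Hey1 gave -0.02. The search for the closest tested genes left out symbols of unnamed transcripts, such as those ending in Rik or starting with Gm and digits. Among the rest, Hes5 was most like Pcdh8 (0.989), Snn (0.983) and Eml1 (0.983), and Hes6 most like Chst1 (0.971), Slc8b1 (0.97) and Agpat4 (0.968). For Hey1 the closest were Septin6 (0.977), Frzb (0.967) and Cpne6 (0.965), and for Hes1 they were Fam43a (0.934), Pank2 (0.922) and Mapk1ip1l (0.92). Hey2 was closest to Thsd4 (0.899), Unc45b (0.892) and Grp (0.884), and Heyl to Igf2r (0.944), Htr1a (0.93) and Fam114a1 (0.93).

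The rest of the Notch pathway is given from lists drawn from general knowledge, with earlier results of these data known. Counts are against uninduced cells with the background percentages above. A gene not above the array median on all 3 uninduced arrays could be tested only through an induced group. The counts of this and the later lists are therefore descriptions. Among ligands and the genes that prepare them for signalling, 11 were tested, and 3 were higher at 24 h, 7 at 48 h and 5 at 72 h, with 0 lower. The ligands Dll1, Dll3 and Dll4 were higher at all 3 times. Dll4, with signals of 2.3 to 5.32 in uninduced cells, passed the filter only through induced groups. Dll1 gave log2 differences of 3.72 ± 0.32, 3.04 ± 0.32 and 2.14 ± 0.32 at 24, 48 and 72 h. Dll3, a family member that does not activate Notch in trans, gave 4.04 ± 0.46, 4.39 ± 0.46 and 2.69 ± 0.46 at those times.

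The ligand Jag1 was, like Hey1, not called at 24 h and called at 48 and 72 h. Jag1 differed by 0.02 ± 0.27 at 24 h (adjusted p = 0.964), 2.68 ± 0.27 at 48 h (adjusted p = 1.26e-05) and 2.16 ± 0.27 at 72 h (adjusted p = 4.62e-05). It was higher at 48 h than at 24 h by 2.66 ± 0.27, and by 2.60 ± 0.25 without 24 h replicate 1. For the ubiquitin ligase Mib1, which drives ligand endocytosis, the 24 h value turned on the array that stood apart. Its signal at 24 h was 34.3 on replicate 1 and 389 and 411 on the others, against 148 to 200 in uninduced cells. With all arrays the 24 h difference was 0.08 ± 0.61 (adjusted p = 0.945), and without 24 h replicate 1 it was called at 1.10 ± 0.18 (adjusted p = 0.000981). At 48 h Mib1 was higher than in uninduced cells by 2.43 ± 0.61 (adjusted p = 0.00782), and higher than at 24 h by 2.35 ± 0.61, or 1.33 ± 0.18 without 24 h replicate 1.

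All 4 receptors were tested, and 2 were higher at 24 h, 2 at 48 h and 1 at 72 h, with 1 lower at 48 h. Notch1 was higher by 1.37 ± 0.34 at 24 h and 1.59 ± 0.34 at 48 h, and did not pass at 72 h with 0.84 ± 0.34 (adjusted p = 0.0595). Notch2 was higher by 1.49 ± 0.27, 1.57 ± 0.27 and 1.22 ± 0.27 at 24, 48 and 72 h, and Notch4 was lower at 48 h by -1.03 ± 0.30. Of 13 tested genes of receptor cleavage and glycosylation, 2 were higher at 24 h, 5 at 48 h and 4 at 72 h, with 0 lower. The glycosyltransferase Mfng gave 2.64 ± 0.40, 2.95 ± 0.40 and 1.68 ± 0.40, and Ncstn, a subunit of gamma-secretase, gave 1.82 ± 0.32, 1.68 ± 0.32 and 1.38 ± 0.32. The protease Adam10 was higher at 48 h by 2.05 ± 0.44. Its signal was 294 to 372 in uninduced cells, 1307 to 1472 at 48 h and 1486 to 1654 at 72 h. At 24 h the Adam10 signal was 152 on replicate 1, and 680 and 739 on the others. Without 24 h replicate 1 the cleavage and glycosylation list had 7 genes higher and 1 lower at 48 h, and 5 higher and 2 lower at 72 h. The receptor count at 24 h was 3 without 24 h replicate 1, with 2 higher and 1 lower, and 1 without uninduced replicate 1 or 3. At 72 h the receptor count was 2 without 24 h replicate 1 or 3 or 72 h replicate 3.

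Of 9 tested nuclear partners and cofactors, 1 was higher at each time, the co-activator Maml1 (1.19 ± 0.30 at 24 h), with 2 lower at 72 h, Kat2b and Hdac1. RBPJ itself is encoded by Rbpj, which gave -0.50 ± 0.31, -0.21 ± 0.31 and -0.45 ± 0.31 and was not called. Its 24 h signal was 502 on replicate 1 and 1339 and 1109 on the others, against 1252 to 1313 in uninduced cells, and without replicate 1 the 24 h difference was -0.08 ± 0.16. At 24 h the count called in this list was 2 without 24 h replicate 1 and 0 without uninduced replicate 1 or 3. At 48 h it was 3 without 24 h replicate 1 and 0 without uninduced replicate 3, and at 72 h, where 3 were called in all, it was 1 without 72 h replicate 2 or 3 or any uninduced array. Of 4 tested Groucho co-repressors, through which HES proteins repress, 0 were called at 24 h, and at 48 and 72 h Tle1 was higher (0.69 ± 0.22 and 1.51 ± 0.22) and Tle6 lower (-1.10 ± 0.36 and -1.34 ± 0.36). The 48 h count of 2 was 0 without 48 h replicate 1 or 2 or uninduced replicate 3, and 1 without uninduced replicate 2.

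Among 9 tested inhibitors and turnover genes, 2 were higher at each time and 0 were lower. Dtx4 gave 2.41 ± 0.46, 2.64 ± 0.46 and 3.17 ± 0.46 at 24, 48 and 72 h. Nrarp, a feedback inhibitor that is itself a Notch target, gave 1.17 ± 0.39 at 24 h (adjusted p = 0.0728), 2.28 ± 0.39 at 48 h (adjusted p = 0.000662) and 2.34 ± 0.39 at 72 h (adjusted p = 0.000401). At 24 h the other gene called was Numbl (1.44 ± 0.33). The count was 1 at 24 h without uninduced replicate 3 and 4 at 48 h without 24 h replicate 1.

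**Figure D5:**
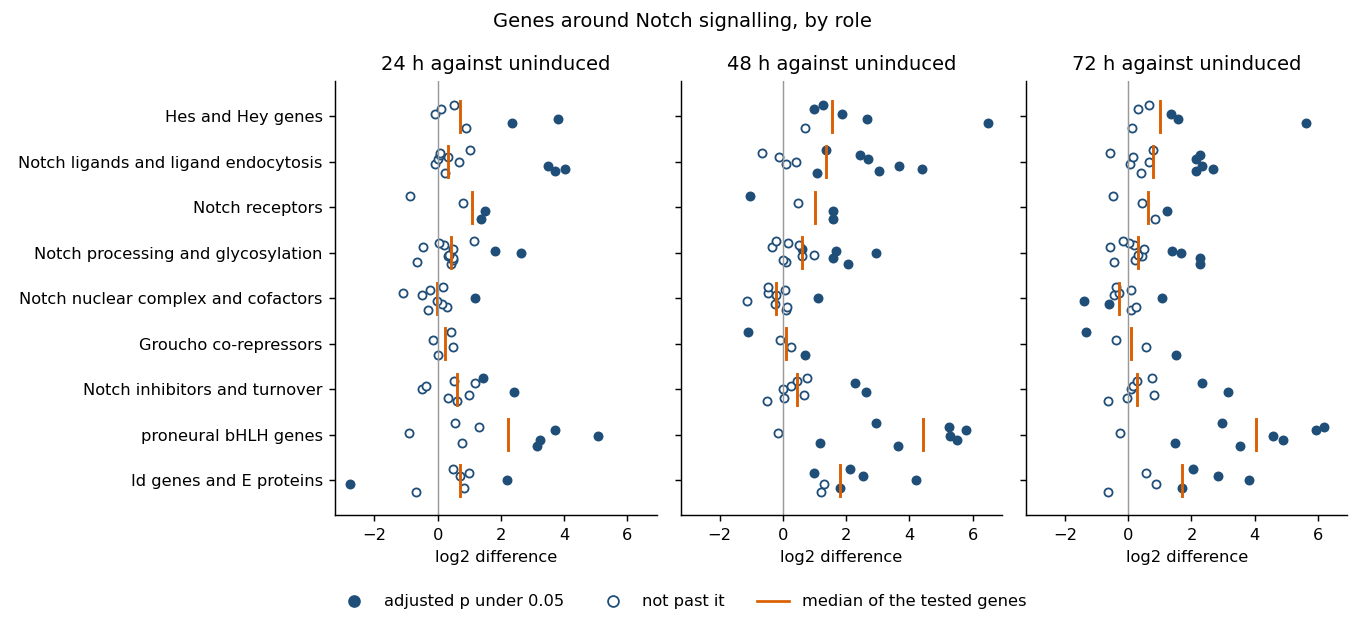
Log2 difference from uninduced cells at 24, 48 and 72 h (1 panel each, horizontal axis) for the tested Hes and Hey genes and the tested genes of each list, with filled points for an adjusted p under 0.05, open points for the others and an orange line at the median of the row. The ligand row holds 3 filled points at 24 h and 7 at 48 h, and the row of nuclear partners 1 at each of these times.

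The bHLH genes that HES proteins oppose or that compete for their partners were also read. Of 8 tested proneural genes, Neurog1 included, 4 were higher at 24 h and 7 at both 48 and 72 h, with 0 lower. Without 24 h replicate 1, 5 of them were higher and 1 lower at 24 h. Neurog1 is the switched-on gene itself. Like it, Neurod2, Neurod4, Nhlh1, Nhlh2 and Olig2 passed the filter only through induced groups. The counts of this list are therefore a description and not support for a proneural response. Neurod4 gave 3.23 ± 0.39, 5.50 ± 0.39 and 4.90 ± 0.39, and Nhlh1 gave 3.72 ± 0.35, 5.80 ± 0.35 and 5.93 ± 0.35. Of 7 Id genes and E proteins, 1 was higher and 1 lower at 24 h, 5 were higher at 48 h and 4 at 72 h. Id4 gave 2.19 ± 0.40, 4.22 ± 0.40 and 3.81 ± 0.40, and Id3, the gene lower at 24 h, gave -2.77 ± 0.65. The 24 h count of this list was 5 without 24 h replicate 1 and 1 without uninduced replicate 1. Bhlhe40, a HES-related repressor, was lower at 48 h by -1.65 ± 0.44 (adjusted p = 0.0106) and at 72 h by -1.46 ± 0.44 (adjusted p = 0.0168), a call lost without 72 h replicate 1 or 2 or uninduced replicate 2. Hes2 stayed under the filter, with signals of 0.556 to 13.3.

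Markers of cell types moved with these results, and their part in them was not tested. The summed signal of 10 ES cell markers ran from 43834 to 50130 in uninduced cells, 21174 to 25345 at 24 h, 5745 to 8732 at 48 h and 5010 to 5572 at 72 h, with 10 of 10 called lower at 48 and 72 h. For 10 neural progenitor markers, a list that holds Hes5 itself, the sums were 2348 to 2610, 2514 to 3224, 8438 to 9555 and 8856 to 9977 in the same order of groups. Vim, with 2162 to 2291 in uninduced cells and 4436 to 6905 at 72 h, made up most of the uninduced sum of this list. For 10 neuronal markers the sums were 3950 to 4398, 1766 to 4320, 10221 to 15017 and 25892 to 28716. Stmn2, with 3222 to 3649 in uninduced cells and 686 to 1654 at 24 h, made up most of the uninduced sum. Of the 10 neuronal markers 3 were called higher and 2 lower at 24 h, and 9 higher and 0 lower at both 48 and 72 h. Of the progenitor markers 5, 8 and 7 were higher and 0, 1 and 1 lower at 24, 48 and 72 h. Without 24 h replicate 1, 6 neuronal markers were higher and 2 lower at 24 h, and 6 progenitor markers were higher and 0 lower. Without uninduced replicate 1 the 24 h counts called were 1 neuronal and 2 progenitor markers. With the 6 arrays alone 0 neuronal markers were called at 24 h.

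Lists of other cell types were read in the same way, and their counts stand beside the background percentages above. Sums of 9 presomitic and somite markers, Dll1 among them, ran from 608 to 957 in uninduced cells, 1570 to 2832 at 24 h, 998 to 1389 at 48 h and 548 to 974 at 72 h, with Tbx6, Msgn1 and Mesp2 below the array medians at 48 and 72 h. Dll1 carried the higher sums at 24 h, with 872 to 1793 against 54.2 to 98.2 in uninduced cells, and was the only one of the 4 tested genes of this list called then. At 48 and 72 h, 2 of the 4 were called higher and 1 lower. Uncx ran from 89.9 to 340 at 72 h, against 0.881 to 2.28 in uninduced cells. The 10 endothelial markers gave 365 to 523, 502 to 895, 227 to 336 and 157 to 346, and Cdh5, Tie1 and Emcn were below the medians in all 4 groups. Cldn5 ran from 121 to 201 at 24 h, against 11.7 to 30 in uninduced cells. Sox17 ran from 36.3 to 132 at 24 h, against 9.46 to 14 in uninduced cells. Of 7 tested endothelial markers, 1, 0 and 1 were called higher and 1, 2 and 4 lower at 24, 48 and 72 h. The 10 muscle markers gave 251 to 1242, 271 to 365, 255 to 719 and 1578 to 1834, with Myh11, Tnnt2, Myod1 and Myog below the medians in every group. Acta2 ran from 818 to 1287 at 72 h, against 80.7 to 618 in uninduced cells. Tagln ran from 342 to 836 at 72 h, against 27.8 to 494 in uninduced cells. Of 4 tested muscle markers, 1, 0 and 2 were called higher and 0 lower at 24, 48 and 72 h. With 1 array left out, the 72 h count ran from 0 to 2. Finally, 10 fibroblast markers gave 138 to 198, 172 to 299, 229 to 309 and 236 to 464, with Dcn and Fbln5 below the medians throughout. Of 4 tested fibroblast markers, 1, 3 and 2 were called higher at 24, 48 and 72 h, and 1 lower at each time.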

How the data were processed

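The authors made the deposited values with MAS5, per the submitters' processing notes, as linear signal intensity per probe set and array. Its version and settings: not given in the sources used here. The 2% trimmed mean was 150 on each array. Cells, RNA and cRNA are as in the labels' protocols. Of 45101 probe sets, 34945 had 1 gene symbol, 932 several and 9160 none, and 64 were controls. Only those with 1 symbol were used.

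From these, log2(signal + 16) was computed and the brightest probe set kept per gene. Differences on this scale understate the change of dim genes. A gene was tested if above its array's median (percentile 50) on all 3 arrays of at least 1 group, which left 11806 of 18193. One model with 4 groups was fitted to 12 arrays (R 4.3.3; limma 3.58.1 with lmFit, contrasts.fit and trended eBayes). All tests were two-sided, with Benjamini-Hochberg adjustment. The 72 h against 24 h contrast was added after the data were seen, to order the levels. The code was tested on simulated data. Errors are SE from limma or SD over 3 arrays, and p-values measure the spread between arrays that the labels call biological replicates.

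The members, lists and tests were chosen with earlier results of these data known. Named genes are all members, Neurog1, members of lists of at most 15 genes, and the 3 genes most like each tested member. Some genes of the lists were not analysed here. Promoters came from RefSeq (GRCm38.p6).

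Same-numbered arrays of different groups were compared by the correlation of their deviations from the group means. Over 18 such pairs it ran from 0.0308 to 0.577, and 16 exceeded 0.1. All 3 pairs exceeded 0.1 for each comparison except 72 h with uninduced cells and 72 h with 24 h. The labels name no litter, day or batch for the numbers, so the pairing comes from the data. Alternatives were pseudocounts of 1 and 64, no filter and percentile 75, quantile normalization, median centring, the mean of probe sets, array weights, a replicate block, no trend, the 6 arrays of a comparison alone, and each array left out.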

Additional observations from a re-analysis of the deposited data

Results flagged for a closer look

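The differences from uninduced cells at 48 h and at 24 h were unlike each other for 4 of the members, by the limma test of 48 h against 24 h with Benjamini-Hochberg adjustment over all genes tested. Hes5 was higher at 48 h by 4.12 ± 0.41 (adjusted p = 5.75e-05), Hey1 by 1.94 ± 0.25 (adjusted p = 0.000298) and Hey2 by 0.89 ± 0.22 (adjusted p = 0.0149). Hey2 met the filter through the 48 h arrays alone, so its difference is a description. For Hes6 the difference was -1.17 ± 0.36 (adjusted p = 0.0418). The Hes6 call was lost in 12 of 23 alternatives and the Hey2 call in 4 of 22. On the second Hes6 probe set the difference was -0.99 ± 0.38 and not called (adjusted p = 0.138 in the limma fit of all probe sets). In the same comparison 10.3% of all genes were called higher and 7.55% lower. Groups of 3 arrays are too small to screen single genes for outlying arrays, though 24 h replicate 1 stood apart across the tested genes.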

How the results depend on the processing

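Over the 5 comparisons of the design and 23 alternatives (22 for Hey2 and Heyl, which the filter at percentile 75 removed), the 14 called differences of the members gave 319 values, of which 303 kept direction and call, 16 lost the call and 0 reversed. The 16 losses were those of Hes6 and Hey2 for 48 h against 24 h. Of the 16 differences not called, 361 values held 17 that passed and 9 that reversed. Reversed values were -0.25 (quantile normalization), -0.0802 (median centring), -0.10 (array weights) and, with 1 array left out, a range of -0.19 to 0.293 for Hes1 at 72 h against uninduced cells, below 0 without 72 h replicate 3 or uninduced replicate 1. With 1 array left out, Hes1 for 48 h against 24 h ran from -0.318 to 0.0148, Hey1 at 24 h against uninduced cells from -0.195 to 0.10 and Hey2 there from -0.0922 to 0.269. Heyl for 72 h against 24 h was -0.0433 under quantile normalization and -0.0439 under median centring, and Neurog1 for 48 h against 24 h was -0.10 with the mean of probe sets. Members called numbered 3 for 48 h against uninduced cells at percentile 75, where fewer genes were tested. They numbered 2 for 48 h against 24 h and 1 for 72 h against 48 h with the 6 arrays alone, and 5 for 72 h against 48 h with array weights, whose estimation stopped before convergence. Leaving out 1 array gave 2 to 2, 5 to 6, 3 to 4, 2 to 5 and 0 to 1 members in these comparisons (24, 48 and 72 h against uninduced cells, then 48 h against 24 h, then 72 h against 48 h). Genes called were 1335, 4316, 5180, 2104 and 94 in that order, and with 1 array left out 701 to 2961, 3213 to 6717, 4064 to 7358, 1195 to 3007 and 27 to 485, the highest each time without 24 h replicate 1. With the 6 arrays alone they were 365 for 24 h and 6486 for 48 h against uninduced cells, 1030 for 48 h against 24 h and 439 for 72 h against 48 h. With array weights they were 6956, 8108 and 2549 for 48 h and 72 h against uninduced cells and 72 h against 48 h. For 72 h against 48 h they were also 19 and 239 with pseudocounts of 1 and 64, 51 at percentile 75 and 159 with the mean of probe sets. Except where stated, the cause was not tested. Quantile normalization and median centring moved the median of all genes by -0.15 and -0.14 (48 h against uninduced cells), -0.16 and -0.19 (72 h) and -0.11 and -0.15 (48 h against 24 h). The share of calls that were higher was 57.7% for 48 h against 24 h, and 45.6% and 45.8% under those settings. It was 57.6%, 48.8% and 47.2% for 72 h against uninduced cells, and 51.8%, 42.8% and 38.5% for 72 h against 24 h. With the replicate block, genes called were 1676, 4709, 5616, 2501 and 111, and Hes6 for 48 h against 24 h had an adjusted p of 0.0457; the block changed no call of a member. Signals near the floor limit the sizes for Hes5, Hey2, Heyl, Hes3 and Hes7.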
